A study of Mus musculus with 10 samples.

Results

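The cytosolic creatine kinases Ckm and Ckb, the mitochondrial creatine kinases Ckmt1 and Ckmt2, and myoglobin (Mb) were followed through 5 tissues of the mouse. They were taken as every probe set of either array chip whose only gene symbol is among these names. Ckmt2 has no probe set under its name here and its level was not analysed, so 4 of the 5 genes were measured, of 6123 named genes in all, by 8 of 13057 probe sets. Ckm had 2 probe sets, Ckb 3, Ckmt1 1 and Mb 2. Most are named after a sequence record, and 1 each of Ckm, Ckb and Mb carries a name that begins with Msa. RNA came from muscle, hypothalamus, pancreas, liver and white adipose tissue of adult female mice of the strain C57BL/6, and the labels name no treatment, no allele and no age beyond adult. Each tissue was hybridised to 1 array of chip A and 1 of chip B, which makes 10 arrays with no replicates. Differences are therefore given without a test and without a spread between animals, and precision is limited by the small number of arrays. The labels do not say which muscle was taken or how many animals gave the RNA. The title of the adipose arrays gives a preconfluent state while the source label is white adipose tissue, and the name used below is the adipose-labelled sample.

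Creatine kinases move a phosphate group between ATP and creatine, so that phosphocreatine can buffer ATP where it is used quickly. Ckm is the cytosolic subunit of skeletal muscle and heart, where part of it is bound in the sarcomere. Ckb is the cytosolic subunit best known from brain, Ckmt1 is the ubiquitous mitochondrial form that lies between the mitochondrial membranes, and Ckmt2 is the sarcomeric mitochondrial form. Myoglobin is the oxygen-binding heme protein of heart and of oxidative skeletal muscle fibres.

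The 250 bases upstream of the start sites are shown first, since the 4 genes fall into 2 patterns of tissue, muscle for Ckm and Mb and hypothalamus for Ckb and Ckmt1. They are from RefSeq on build GRCm38.p6, read 5′ to 3′ on the strand of the gene, and all 4 genes matched. Ckmt2 also matched and is not shown. Ckmt1 has 2 annotated starts and Mb 3, and the start furthest downstream is shown for each. Which start was used in these tissues was not measured. The sequences are chr7:19410844-19411093 on the plus strand for Ckm, chr15:77022728-77022977 on the minus strand for Mb, chr12:111672339-111672588 on the minus strand for Ckb and chr2:121358360-121358609 on the plus strand for Ckmt1. E-boxes are known as sites of the MyoD family, MEF2 sites of the MEF2 factors and CArG boxes of SRF, all regulators of muscle genes. Capitals mark matches, on either strand, to the E-box CANNTG, the CCAC box CCACCC, the TATA box TATAAA, the MEF2 site and the SRF CArG box.
Ckm: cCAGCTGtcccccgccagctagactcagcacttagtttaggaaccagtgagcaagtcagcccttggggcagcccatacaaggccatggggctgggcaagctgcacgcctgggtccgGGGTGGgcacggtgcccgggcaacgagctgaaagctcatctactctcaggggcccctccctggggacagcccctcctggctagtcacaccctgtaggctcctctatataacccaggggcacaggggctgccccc
Mb: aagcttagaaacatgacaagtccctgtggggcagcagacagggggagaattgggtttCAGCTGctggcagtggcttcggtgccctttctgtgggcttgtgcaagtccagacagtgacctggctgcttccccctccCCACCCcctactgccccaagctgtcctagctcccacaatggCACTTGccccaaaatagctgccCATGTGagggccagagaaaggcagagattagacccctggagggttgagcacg
Ckb: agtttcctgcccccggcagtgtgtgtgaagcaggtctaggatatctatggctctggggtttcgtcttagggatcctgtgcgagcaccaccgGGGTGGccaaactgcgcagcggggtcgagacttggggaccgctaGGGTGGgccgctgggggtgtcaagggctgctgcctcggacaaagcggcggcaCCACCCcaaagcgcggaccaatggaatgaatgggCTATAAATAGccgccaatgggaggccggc
Ckmt1: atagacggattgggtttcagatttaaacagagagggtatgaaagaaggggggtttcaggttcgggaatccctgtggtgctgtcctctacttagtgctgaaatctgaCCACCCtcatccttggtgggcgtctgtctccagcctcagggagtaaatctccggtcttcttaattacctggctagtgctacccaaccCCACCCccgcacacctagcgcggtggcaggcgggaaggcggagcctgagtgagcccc

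In the Ckm sequence there was 1 E-box, of the form CAGCTG, and 1 CCAC box. The Mb sequence held 3 E-boxes, 1 of them CAGCTG, and 1 CCAC box. The Ckb sequence held no E-box but 3 CCAC boxes, and 1 match to the MEF2 site that overlaps 1 TATAAA, which lies 28 to 23 bases before the start. The Ckmt1 sequence shown held 2 CCAC boxes and no E-box. The sequence of Ckmt2, not shown, held 4 E-boxes, 1 of them CAGCTG, and 1 CCAC box. No exact match to the CArG pattern searched, CC, 6 bases of A or T and GG, was in any of them. The Ckm sequence holds ccatacaagg, which departs from that pattern by a C, and tatataa, which is not TATAAA. Neither was counted. The counts depend on the start: before the upstream start of Ckmt1 there was no CCAC box but 1 TATAAA, 31 to 26 bases away. Before the start of Mb furthest upstream there were 2 E-boxes, neither of them CAGCTG, and no CCAC box, and before the middle start 2 E-boxes, 1 of them CAGCTG, and 1 CCAC box. Over 32851 promoters of the same length, 66.2% held an E-box, 13% the form CAGCTG, 28.1% a CCAC box, 12.4% TATAAA, 2.92% a MEF2 match and 1.47% a CArG box. E-boxes and CCAC boxes are thus frequent in any promoter of this length, and a match is a description and not a site of binding. The GC content was 64.8% for Ckm, 58.4% for Mb, 62.8% for Ckb and 56% for Ckmt1, all above the median of 52.4% and all below the 90th percentile of 69.2%. CpG pairs numbered 6 in Ckm, 2 in Mb, 16 in Ckb and 9 in Ckmt1, against a median of 6.

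Values are intensities, scaled to a common level within each chip, and a probe set is compared between tissues and not with another probe set. The noise bound of an array is the size of its 1st percentile, which lies below 0 because a signal had been subtracted. On chip B, which holds 7 of the 8 probe sets, the pancreas array had a bound of 2608, muscle 1639.5, liver 792, hypothalamus 649.5 and the adipose-labelled sample 918. The arrays of chip A had bounds of 1166, 1065, 295, 258 and 390.1 in the same order. A low value in pancreas or muscle is therefore less well resolved than in the other 3 tissues. A fold is given as "at least" where the lower value lies inside the noise and the bound stands in for it. A probe set was called for a tissue if it read at least 4 times as high there as in every other tissue, after values below 175 on chip A or below 123 on chip B had been set to these floors. For 15 probe sets present on both chips, 54 values above noise differed by -0.57 on average (log2 of chip A over chip B) with an SD of 0.32, which is the only measure of a repeat. This spread is technical, comes mostly from control probe sets and holds no difference between animals.

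By this rule 3 of the 8 probe sets were called for muscle, where 1.85% of all probe sets were called, and 3 for hypothalamus, where 1.98% were. None was called for pancreas, liver or the adipose-labelled sample, where the shares of all probe sets called were 3.58%, 2.12% and 0.911%. The remaining 2 probe sets, 1 of Ckb and 1 of Mb, lay inside the noise in all 5 tissues. All 6 called probe sets carry the suffix _s_at or _f_at, which marks designs that may also bind messages of related genes.

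**Figure D1:**
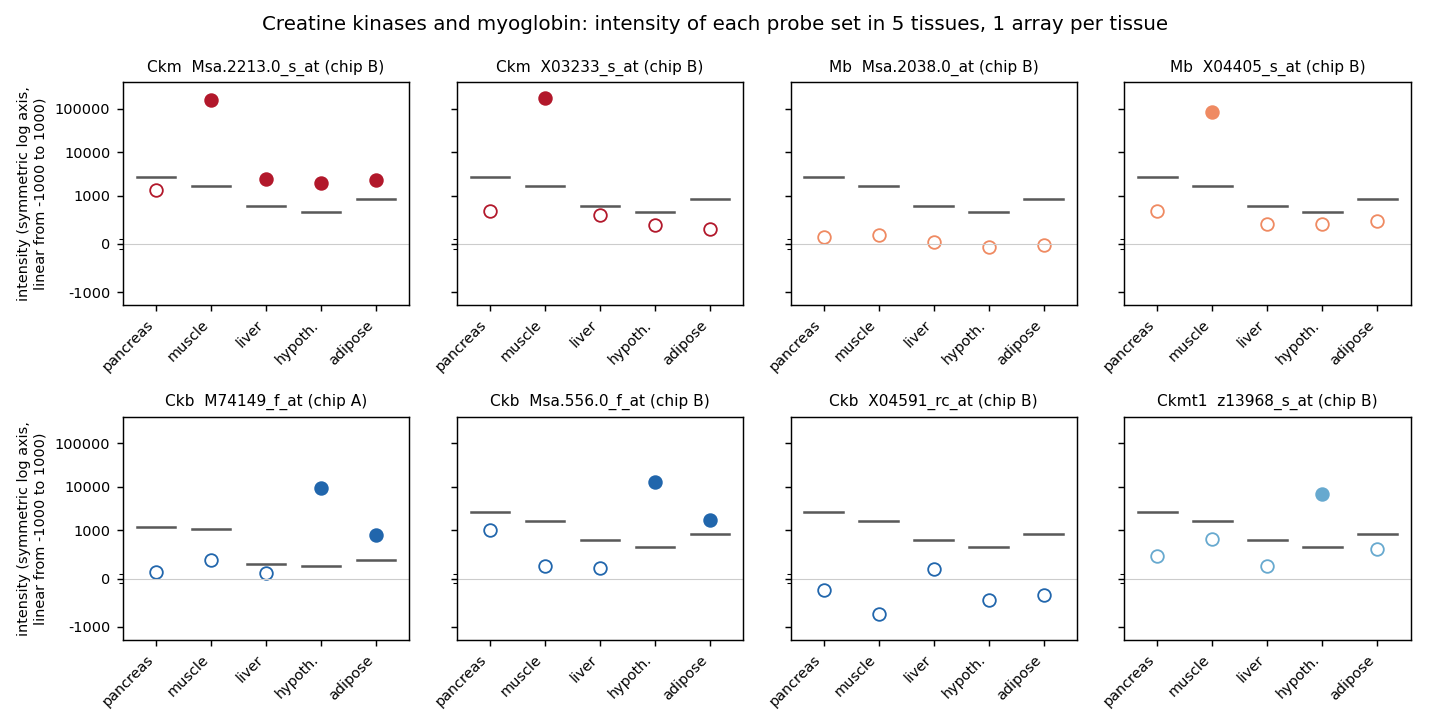
Intensity (log axis on both sides of a linear stretch around 0) of the 8 probe sets of Ckm, Mb, Ckb and Ckmt1 in 5 tissues, 1 array per point; grey bars are the noise bound of each array, filled points lie above it and open points inside it. Ckm at 159172 and 176723 and Mb at 82465 stand out in muscle, and Ckb at 9532 and 12553 and Ckmt1 at 6725 in hypothalamus.

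Ckm was by far highest in muscle by both of its probe sets. The Msa probe set read 1341 in pancreas, 159172 in muscle, 2395 in liver, 1946 in hypothalamus and 2301 in the adipose-labelled sample. Only the pancreas value lay inside its noise, and the other 3 tissues lay close together, far below muscle. Muscle was 66.5-fold above liver, 81.8-fold above hypothalamus, 69.2-fold above the adipose-labelled sample and at least 61.0-fold above pancreas. The 3 low tissues differed from each other by at most 1.23-fold, liver over hypothalamus, or 0.30 on the log2 scale, which is no larger than the technical SD of 0.32 between chips. With quantile normalization the lowest of the folds over other tissues was 31.7.

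The second Ckm probe set, X03233_s_at, read 688 in pancreas, 176723 in muscle, 599 in liver, 383 in hypothalamus and 316 in the adipose-labelled sample. Here muscle alone was above noise. Muscle was at least 223-fold above liver, at least 272-fold above hypothalamus, at least 192-fold above the adipose-labelled sample and at least 67.8-fold above pancreas. The pancreas array sets the last and lowest of these, and without it the lowest fold was 192. The signal of Ckm in liver, hypothalamus and the adipose-labelled sample was thus above noise by 1 probe set and inside it by the other. By the Msa probe set these 3 values were 2.51 to 3.02 times their noise bounds. Whether it also binds another message was not tested.

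Markers of muscle fibres bear on the same tissues. In muscle all 11 measured markers were above noise, with a summed intensity of 618695, among them Pvalb at 91876, Actn3 at 91639 and Tnnt3 at 76321. Mylpf, a myosin light chain, Tnni2 and Tnnt3, fast troponin subunits, and Tpm2, Myom1 and Ryr1 lay inside the noise in the other 4 tissues. Tnnc2, Actn3, Acta1, Myl1 and Pvalb were each above noise in at least 1 of them. In liver 1 of 11 was above noise, Tnnc2 at 320, and the sum was 596. In hypothalamus it was 2 of 11, Acta1 at 320 and the calcium-binding protein Pvalb at 1251, with a sum of 1932. In the adipose-labelled sample it was also 2 of 11, the skeletal actin Acta1 at 1063 and Myl1 at 618, with a sum of 1977, and in pancreas 2 of 11, Tnnc2 at 1414 and Actn3 at 1388, with a sum of 4472. Outside muscle these sums are mostly of values inside the noise. The part of these markers' cells in the low Ckm values was not tested. In such bulk samples, fewer cells of a type and less RNA per cell cannot be told apart.

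Mb, like Ckm, was highest in muscle, and muscle alone was above noise. X04405_s_at read 678 in pancreas, 82465 in muscle, 413 in liver, 414 in hypothalamus and 474 in the adipose-labelled sample. Muscle was at least 104-fold above liver, at least 127-fold above hypothalamus, at least 89.8-fold above the adipose-labelled sample and at least 31.6-fold above pancreas. The 4 low values carry no order, since each lies inside the noise of its array. Without the pancreas arrays the lowest fold was 89.8. The Msa probe set of Mb read 137 in pancreas, 189.7 in muscle, 29.9 in liver, -61.5 in hypothalamus and -23.1 in the adipose-labelled sample, all inside the noise, so the muscle signal of Mb rests on 1 probe set. Myoglobin is typical of slow and oxidative fibres, and in muscle 5 of 5 slow fibre markers were above noise, among them Myl3 at 36990.4, Tnnc1 at 21935 and Myl2 at 19487. Of 6 cardiac markers 2 were above noise in muscle, Myl3, which is also in the slow fibre list, and Myh6 at 10924.

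Ckb was highest in hypothalamus on both chips, and the adipose-labelled sample was the other tissue above noise. On chip A, M74149_f_at read 143 in pancreas, 392 in muscle, 123 in liver, 9532 in hypothalamus and 892 in the adipose-labelled sample. On chip B, its Msa probe set read 999.9, 263, 229, 12553 and 1752 in the same order. Both probe sets were above noise in those 2 tissues and inside it in pancreas, muscle and liver.

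Set against the adipose-labelled sample, hypothalamus was 10.7-fold higher on chip A and 7.17-fold higher on chip B. These are 3.42 and 2.84 on the log2 scale, with no spread between animals to set them against. Over liver the fold was at least 32.3 on chip A and at least 15.9 on chip B, and over muscle at least 8.95 and at least 7.66. Over pancreas, whose noise was widest, it was at least 8.17 and at least 4.81. Quantile normalization moved the lowest fold to 16.4 on chip A and to 12.4 on chip B. The adipose-labelled sample was at least 3.02-fold above liver on chip A and at least 2.21-fold on chip B, and on chip B at least 1.07-fold above muscle. It lay below the noise bound of pancreas on both chips and below that of muscle on chip A, so its place relative to these is not resolved. The remaining Ckb probe set, X04591_rc_at, read from -729 in muscle to 201 in liver, inside the noise throughout.

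Ckmt1 was above noise only in hypothalamus. Its single probe set, z13968_s_at, read 469 in pancreas, 821 in muscle, 253 in liver, 6725 in hypothalamus and 615 in the adipose-labelled sample. Hypothalamus was at least 8.49-fold above liver, at least 7.32-fold above the adipose-labelled sample and at least 4.10-fold above muscle. Over pancreas it was at least 2.58-fold, so the call at 4-fold rests on reading the pancreas value as 469 rather than by its noise bound of 2608. Without the pancreas arrays the lowest fold was 4.10. By the stricter count, with the noise bound in place of low values everywhere, 3 of the 8 probe sets were at least 4-fold above every other tissue in muscle, where 0.751% of all probe sets were, and 2 in hypothalamus, both of Ckb, where 0.36% were. None was in pancreas, liver or the adipose-labelled sample, where 0.697%, 0.973% and 0.245% of all probe sets were.

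Neuron and glia markers were read beside Ckb and Ckmt1. In hypothalamus 8 of 11 neuron markers were above noise, among them Thy1 at 15353, Stmn3 at 13021 and the synaptic vesicle protein Syp at 9613. So were 5 of 7 astrocyte and 5 of 6 oligodendrocyte markers, among them Gjb6 at 2082 and Mobp at 7340.2, and 4 of 4 peptides, among them Oxt at 11298, Avp at 10766 and Sst at 9720. Of the 7 and 6 glia markers, 2 and 3 were called for hypothalamus, whose noise bound is the lowest. Of 6123 named genes 143 were called for hypothalamus. Gfap read 693 there and 1439 in pancreas, and Mbp 708 there and 782 in muscle, the higher values inside the noise. Slc1a2 was called for liver, at 781. Cnp was called for pancreas at 1950, inside the noise there, and read -504 in hypothalamus. Aqp4 was highest in muscle at 426, inside the noise, and read 40.8 in hypothalamus. In the adipose-labelled sample, where Ckb but not Ckmt1 was above noise, 1 of 11 neuron markers was above noise, Stmn3 at 852, with Gad1 at 37.2 and Sncb at 34.2. This Stmn3 probe set was above noise in all 5 tissues. Its other probe set was above noise in hypothalamus alone and read -227 in the adipose-labelled sample. There 1 of 7 astrocyte markers, Gja1 at 1086, and 0 of 6 oligodendrocyte markers were above noise. The same sample had 7 of 7 white adipocyte markers above noise, among them Cidec at 20109, Fabp4 at 17497 and Lipe at 17410.2, and 5 of 6 smooth muscle markers, among them Acta2 at 6581, Tagln at 2491 and Actg2 at 1366. Of these 6 only Tagln was called for it. In muscle 3 of the 6 were above noise, Des at 8970, Actg2 at 4280 and Acta2 at 2872. Des, at 436 in the adipose-labelled sample, and Actg2 were higher in muscle. Of 5 brown adipocyte markers 1 was above noise, Cox8b at 883, while the uncoupling protein Ucp1 was inside it. Cox8b was called for muscle, where it read 14643. The part of any of these cells in the Ckb value was not tested. Of the other tissues, pancreas had 5 of 5 acinar markers above noise, such as Prss2 at 193067, Rnase1 at 168491 and Amy2a5 at 168212, and liver had 7 of 8 hepatocyte markers above noise, such as Serpina1a at 28662, Cyp3a11 at 27946 and Apoh at 23012. The hepatocyte marker Alb, albumin, went against its label, with 26266 in pancreas and 18122 in liver. In pancreas 3 of 8 hepatocyte markers were above noise, Alb, Serpina1a at 3951 and Ttr at 1995, and in muscle 2 of 8, Alb at 8226 and Serpina1a at 2787. Their part in the values of Ckm and Mb was not tested.

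**Figure D2:**
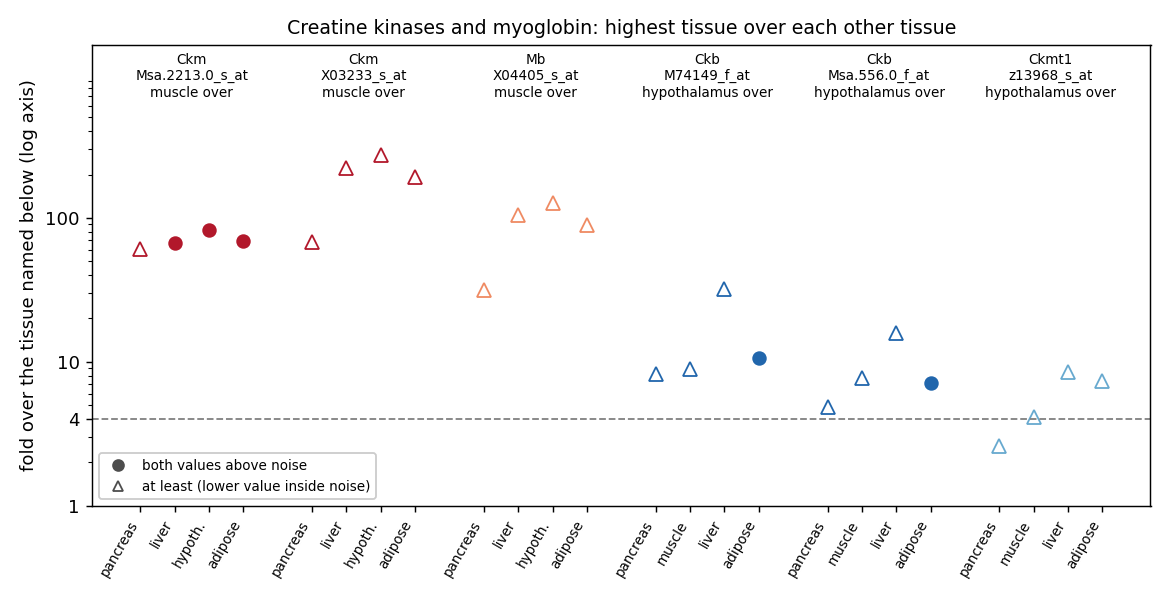
Fold (log axis) of the highest tissue over each other tissue for the 6 probe sets of Ckm, Mb, Ckb and Ckmt1 called for a tissue, 1 array per tissue; filled circles have both values above noise, open triangles are lower bounds, and the dashed line marks 4-fold. The folds of Ckm and Mb run from 31.6 to 272 and those of Ckb and Ckmt1 from 2.58 to 32.3, and the lowest of each probe set is against pancreas.

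Of the genes that make creatine and take it up, all 3 were measured on chip A. None was called for muscle or hypothalamus, and their median in muscle was -0.51, as log2 of the floored value minus the mean of the other 4 tissues, where it was 0 over all named genes. Gamt, which methylates guanidinoacetate to creatine, was above noise in all 5 tissues and read 7925 in pancreas, 2229 in muscle, 6481 in liver, 1180 in hypothalamus and 1654 in the adipose-labelled sample. Pancreas and liver were highest, 1.22-fold apart. Gatm, which makes guanidinoacetate, was called for pancreas at 987 but lay inside the noise there, and it read 10.0 in muscle, -1.0 in liver, 67.6 in hypothalamus and 44.2 in the adipose-labelled sample. The creatine transporter Slc6a8 was above noise only in hypothalamus, at 458, with 84.4 in the adipose-labelled sample, -206 in liver, -887 in pancreas and -1258 in muscle.

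Adenylate kinases and the enzymes that remove and restore AMP form the second system that keeps ATP high. Of 5 measured genes 1 was called for muscle, where 101 of 6123 named genes were, and none for another tissue. The called gene was Adssl1, the muscle adenylosuccinate synthetase. It read 97.1 in pancreas, 4684 in muscle, 335 in liver, 305 in hypothalamus and 27.1 in the adipose-labelled sample, at least 4.02-fold higher in muscle. Ak1, the cytosolic adenylate kinase of muscle and other tissues, read 3031 in pancreas, 2783 in muscle, 192 in liver, 646 in hypothalamus and 323 in the adipose-labelled sample. It was above noise in pancreas and muscle, which lay 1.09-fold apart, unlike Ckm with its 61.0-fold lower bound for that pair.

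The carriers and pores that pass ATP and ADP between mitochondria and cytosol included 1 gene called for muscle of 5 measured, and their median there was 2.39. Of 6123 named genes 101 were called for muscle. Vdac1, a pore of the outer membrane, read 1207 in pancreas, 19685 in muscle, 4739 in liver, 4773 in hypothalamus and 4002 in the adipose-labelled sample by its probe set of chip A, with muscle 4.12-fold above hypothalamus. Its probe set on chip B was also highest in muscle, by 1.58-fold, and was not called. Slc25a4, the ATP and ADP carrier of muscle and brain, read 351, 16586, 64.9, 4881 and 1830 on chip A in the same order of tissues. It was highest in muscle and next in hypothalamus, the tissues where Ckm and where Ckb and Ckmt1 were highest, with muscle 3.40-fold above hypothalamus on chip A and 2.32-fold on chip B. Slc25a5, the carrier of other tissues, was lowest in muscle by all 3 of its probe sets. By u27316_f_at it read 1153 in muscle against 6305 in pancreas, 7647 in liver, 3292 in hypothalamus and 4806 in the adipose-labelled sample.

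Among ATPases that creatine kinase is known to supply, 3 of 8 measured genes were called for muscle and 1 for pancreas. Over all 6123 named genes these counts were 101 and 200. The median of the 8 genes in muscle was 1.84. Atp2a1, the calcium pump of fast fibres, read 126228 in muscle and was inside the noise in the other 4 tissues, at least 48.4-fold lower. Myh4, the fastest myosin heavy chain, read 35445 in muscle, at least 13.6-fold above the others. Atp2a2, the calcium pump of slow fibres and heart, read 11834 in muscle and 2350.2 in hypothalamus, a fold of 5.04. The called pancreas gene was Atp2a3, a calcium pump outside muscle, with 4802 by 1 of its 3 probe sets and values inside the noise by the other 2. Atp1b1, a subunit of the sodium pump, was highest in hypothalamus at 14635 and next in muscle at 8924, 1.64-fold apart.

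Beside myoglobin, the other globins measured were those of blood, and none was called for a tissue. Hba-a1 read 43774 in pancreas, 23972 in muscle, 17288 in liver, 6135 in hypothalamus and 21576 in the adipose-labelled sample, and Hbb-b2 read 18119, 9474, 5803, 3649 and 11043 in the same order. Both were above noise in all 5 tissues and lowest in hypothalamus by these probe sets, which carry the suffix _f_at, whereas Mb was above noise in muscle alone. The Msa probe set of Hba-a1 lay inside the noise in all 5 tissues. Of 11 measured genes of globins and heme none was called for muscle, and their median there was -0.05.

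Of 17 measured regulators of muscle transcription, 2 were called for muscle, Myf6 at 1242 and Tead4 at 812, and 1 for pancreas, Mef2a at 785. All 3 lay inside the noise of their array. Mef2c, a factor of the MEF2 family, read 3659 in pancreas and 3984 in muscle on chip A, 1.09-fold apart, and was inside the noise in the other 3 tissues. Its probe set on chip B was above noise in muscle alone, at 1841. The list's median in muscle was 0.76. Over all 49 genes of these 6 lists, 7 were called for muscle, 3 for pancreas and 0 for hypothalamus, beside 101, 200 and 143 of the 6123 named genes.

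**Figure D3:**
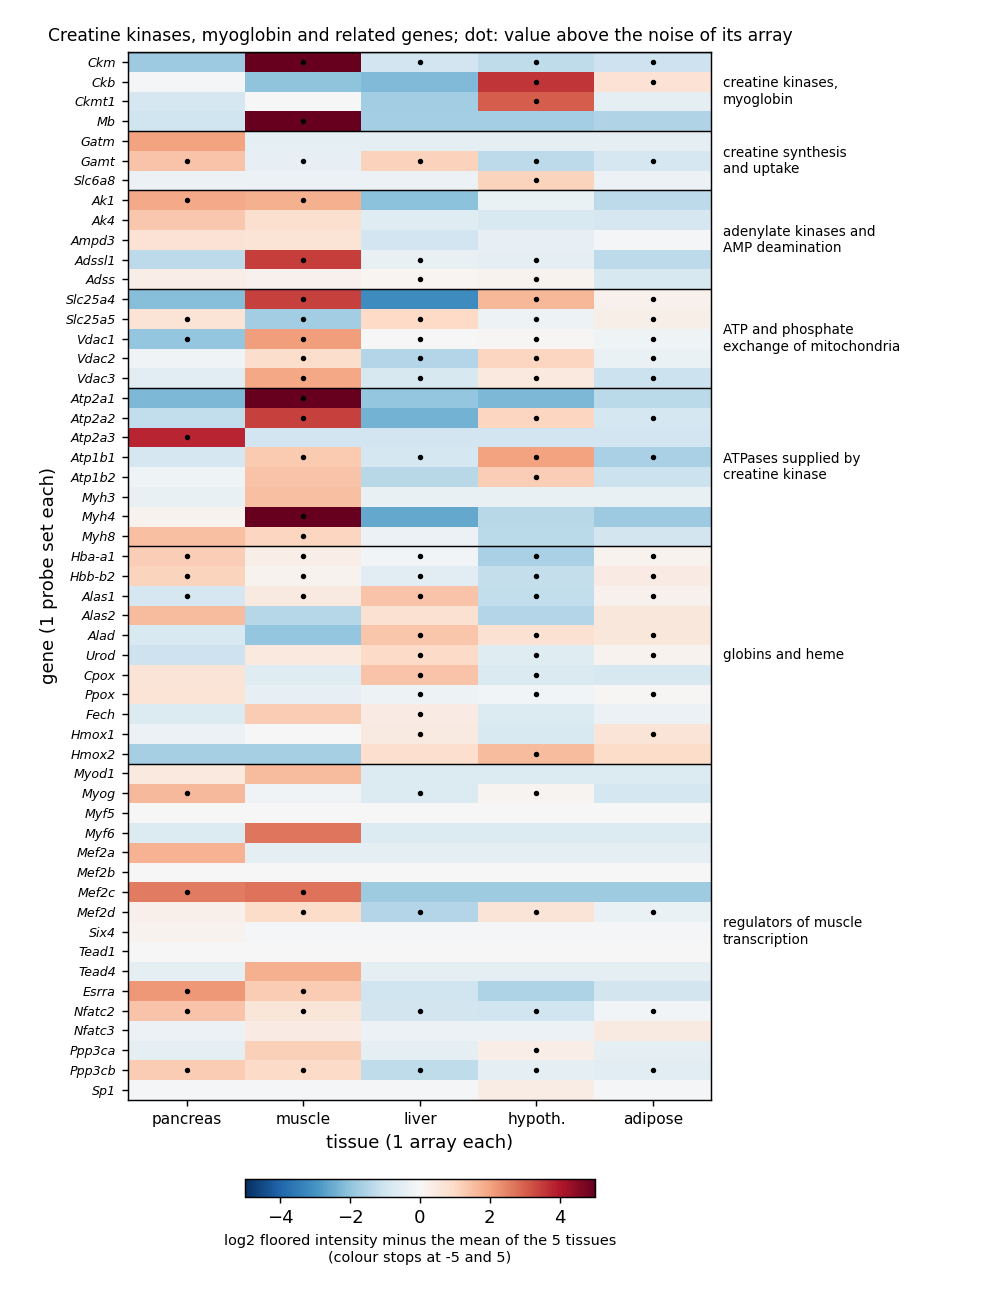
Log2 floored intensity minus the mean of the 5 tissues, as colour that stops at -5 and 5, for Ckm, Ckb, Ckmt1 and Mb and for 49 related genes in 6 lists, by 1 probe set per gene; dots mark values above the noise of the array. Ckm, Mb, Atp2a1 and Myh4 are darkest in muscle, Ckb and Ckmt1 in hypothalamus, and Slc25a5 is pale blue in muscle.

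The genes with the most similar pattern across the 5 tissues were found on chip B. Similarity was the smallest distance of floored log2 values centred on their mean, among 681 genes above noise in their highest tissue. For Ckm, by X03233_s_at, these were Cox6a2, the muscle form of a cytochrome oxidase subunit, at a distance of 1.17, Eno3, the muscle enolase, at 1.24, Mb at 1.29, Myl2 at 1.43 and Pvalb at 1.49. For Mb they were Myl2 at 0.59, Cox6a2 at 0.65, the M-band protein Myom1 at 1.16, the calcium release channel Ryr1 at 1.27 and Ckm at 1.29. Ckm and Mb thus stood among the nearest of each other. In muscle Cox6a2 read 25893 and Eno3 87536, and both were inside the noise in the other 4 tissues. Where low values lie under the floor, the floor decides part of these distances. Low values above the floor but inside the noise, as for Ckm, Mb, Ckb and Ckmt1, also decide part of them.

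For Ckb, by its Msa probe set, the nearest genes were Maged2 at 1.27, the opioid peptide precursor Penk at 1.32, Prkar1b, a regulatory subunit of protein kinase A, at 1.74, Npdc1 at 1.80 and, further off, Tspan3. Of these, Maged2 read 4180 in hypothalamus and 1962 in the adipose-labelled sample, and Penk 4041 and 966, and both were above noise in these 2 tissues, as Ckb was. All 3 lay below the noise bound of pancreas in the adipose-labelled sample, so the order of these tissues is not resolved. For Ckmt1 they were Pcsk1n, a neuroendocrine secretory protein, at 0.74, Nap1l2 at 0.96, Ice1 at 1.03, the adhesion molecule Ncam1 at 1.07 and Rasgrf1, an exchange factor of Ras in neurons, at 1.07. Pcsk1n read 16442 in hypothalamus and 853 in the adipose-labelled sample, where it was inside the noise. No gene stood in both lists.

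**Figure D4:**
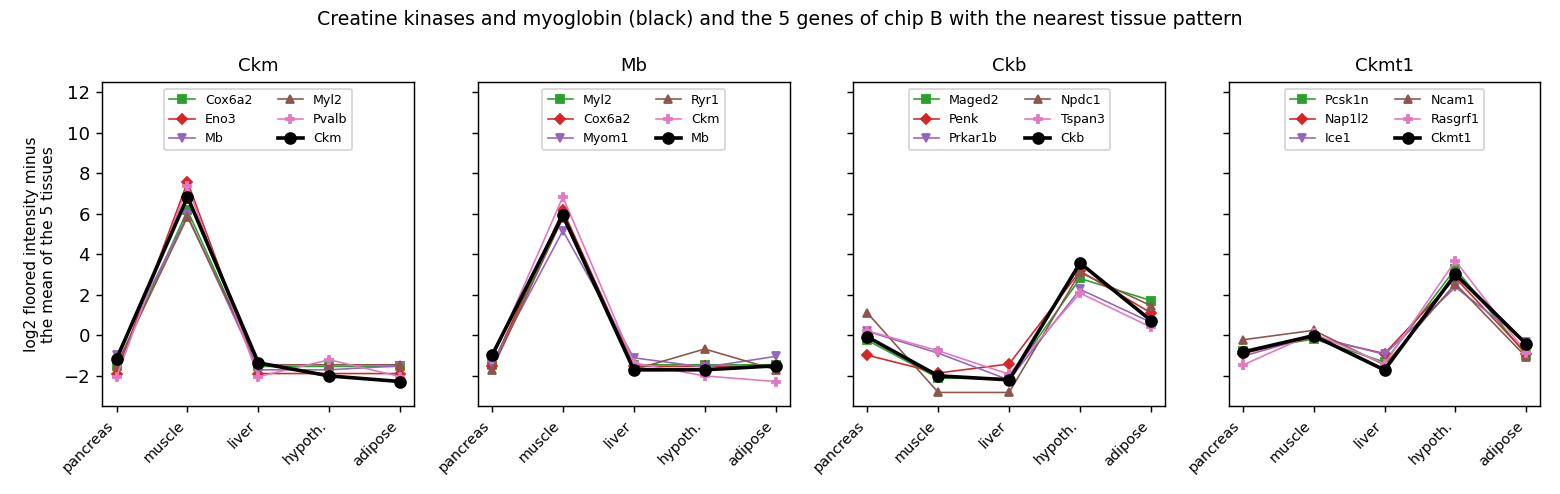
Log2 floored intensity minus the mean of the 5 tissues, 1 array per tissue, for Ckm, Mb, Ckb and Ckmt1 (black) and the 5 genes of chip B nearest to each (colours). Ckm and Mb and their neighbours peak in muscle and lie below 0 in the other 4 tissues, while Ckb and its neighbours peak in hypothalamus and lie above 0 in the adipose-labelled sample, and Ckmt1 and its neighbours lie below 0 there.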

How the data were processed

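Total RNA from each tissue was made into biotin-labelled cRNA and hybridised to Affymetrix arrays, per the labels' protocols. What was deposited is linear intensity, with 17.1% to 38.8% of an array below 0. The 2% trimmed means of the deposited arrays run from 500.8 to 501.5, a common level that the authors' own scaling had set. The software is not given in the sources used here.

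Gene names came from the platform annotation, updated through the RefSeq table of GRCm38.p6. The 61 control probe sets of each chip were dropped, and the 5 arrays of a chip were brought to their mean 2% trimmed mean. The floor is the median of the 5 array medians. In a list, a gene counts once, through whichever of its probe sets ranked highest on its chip by mean log2 value. With 1 array per tissue there is no test. The text names all probe sets of the 5 genes, the 5 nearest genes of each on its chip by its highest probe set, every called gene of a related list, and up to 3 markers per list. Other genes named with values, among them Ak1, Slc25a4, Slc25a5, Atp1b1, Mef2c, Myog and the markers at low values, were chosen after their values were seen. So were the motifs TATAAA and CAGCTG. The genes and lists were chosen with earlier results of these data known. As alternatives, other scalings, floors, fold rules, probe sets and sets of tissues were tried. The script was tested on simulated data. A comparison of proteins was planned and not run. Python 3.11.15, numpy 2.4.6, pandas 2.3.3 and matplotlib 3.10.9 were used.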

Additional observations from a re-analysis of the deposited data

How the results depend on the processing

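Of 75 values recomputed under an alternative, 60 kept their direction and their side of the threshold, or for a count stayed within 1.5 times. Deposited values without further scaling are a weak alternative, since those arrays already shared a common level. The lowest fold of Ckmt1, 2.58 as reported, reached 4.23 with scaling by the 75th percentile, 5.48 with quantile normalization, 7.49 with scaling by hybridisation spikes, 4.10 without the pancreas arrays and 8.19 with the median floor in place of the noise bound, which was chosen after seeing the data. The lowest folds of the other called probe sets stayed above 4, between 31.7 and 66.5 and between 67.6 and 257 for the 2 of Ckm, 31.6 and 122 for Mb, and 8.22 and 16.4 and 4.86 and 12.4 for the 2 of Ckb. The floor enters the calls but not these folds, which use the noise bound, so the planned floors were not run for them. Without probe sets of relaxed design, 0 probe sets were called for muscle and 0 for hypothalamus in place of 3 and 3, since only the 2 probe sets of Ckb and Mb that lie inside the noise remain, and the related genes measured fell from 49 to 15, with 1 called for muscle. Related genes called for muscle, 7 as reported, numbered 11 at 2-fold, 4 at 8-fold and 12 without the pancreas arrays. Those called for pancreas, 3 as reported, numbered 1 with scaling by spikes, 1 with the floor at the 75th percentile, 1 with the noise bound as floor and 1 at 8-fold. Signal over background limits what pancreas and muscle arrays can show at low values. No paired analysis was possible because each tissue has 1 array per chip.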

Other observations

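Heme is the group that myoglobin carries. Of the 11 measured genes of globins and heme, 4 had their highest value in liver, all of them enzymes that make heme, and 4 in pancreas, beside 618 and 2484 of 6123 named genes. The median of those 11 genes in liver was 0.95 (log2 of the floored value minus the mean of the other 4 tissues). Alas1, the first and rate-limiting enzyme of the pathway outside red cells, read 2616 in pancreas, 6398 in muscle, 12782 in liver, 2046 in hypothalamus and 5459 in the adipose-labelled sample. Liver was highest. Muscle and the adipose-labelled sample came next, too close for 1 array each to order. Alad, the next enzyme, read 785 in pancreas, 349 in muscle, 3488 in liver, 2278 in hypothalamus and 1997 in the adipose-labelled sample. It was inside the noise in pancreas and muscle. Urod at 1171 and Cpox at 1446 on chip A were also highest in liver, but both were inside the noise in pancreas and muscle. Their liver values exceeded the pancreas noise bound of 1166 only barely for Urod and by little for Cpox. How far liver lay above pancreas is therefore not resolved for them. The second Cpox probe set, on chip B, read 714 in liver and was inside the noise in all 5 tissues. Alas2, the form of red cell precursors, was also inside the noise in all 5 tissues. Fech, which inserts the iron, was above noise in liver alone, at 376, while its highest value, 671 in muscle, lay inside the wider noise of that array. Ppox, another enzyme of synthesis, was above noise at 354 in liver, 379.9 in hypothalamus and 441 in the adipose-labelled sample, and was highest in pancreas at 673, inside the noise there. Among the enzymes that break heme down, Hmox2 was above noise only in hypothalamus, at 1188, and Hmox1 in liver at 409 and in the adipose-labelled sample at 462.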
